A study of Arabidopsis thaliana and Marchantia polymorpha with 6 samples.

Results

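Arabidopsis genes with a numbered bZIP name, other than HY5, HYH and ABI5, were examined for DNA positions bound in a test tube. The proteins were AtHY5, itself a bZIP protein, and AtPIF4. Members were the protein-coding genes whose symbol or a synonym in the gene table is bZIP followed by a number, without HY5, HYH and ABI5. This gave 40 genes of 27444 protein-coding genes on the nuclear chromosomes. bZIP genes without such a name were left out, among them 6 with an AtbZIP synonym. The list thus covers part of the family, and some groups only in part. The method was DNA affinity purification sequencing (DAP-seq), in which a recombinant protein fixed to beads is offered naked genomic fragments and the fragments it retains are sequenced. Here the fragments averaged 200 bp and came from Col-0 seedlings 10 days old, and the proteins were made in E. coli and held on amylose beads. The groups used are AtHY5 and AtPIF4, with 1 library each and the same wild-type DNA source. The inputs and the Marchantia proteins were not analysed here. Without replicates, no difference below was tested, and values of the 2 proteins compare those libraries only.

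bZIP proteins bind DNA as dimers through a basic region next to a leucine zipper, and most plant members favour sites with an ACGT core, such as the G-box. HY5 promotes light-grown seedling development, and PIF4, a bHLH protein, promotes elongation growth in shade and warmth and also binds G-boxes. Arabidopsis bZIP genes are sorted into lettered groups with different roles. They include abscisic acid and flowering factors in A, membrane-anchored stress factors in B, energy signalling in C and S, the TGA factors of defence and flower development in D, zinc and salt responses in F, and G-box factors in G. Naked DNA carries no chromatin, so an event shows what the protein can hold and not what it occupies in a plant.

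An event is a single position called by the authors, given as an interval of 200 bp with a score from their caller. There were 16825 AtHY5 events, whose median score was 117, and 6699 AtPIF4 events, whose median score was 146. What the score measures is not stated, so it ranks events within a list and is not compared between lists. Read counts were not used here, and the depth of each library is unknown. A gene was counted when an event centre lay inside it or within 1000 bp of either end. The gene table gives no strand, so the start and the end of a gene were not separated.

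In this window, bZIP genes carried AtHY5 events at a share near or under that of protein-coding genes at large. Of the 40 bZIP genes, 16 had an AtHY5 event, or 40% (95% Wilson interval 26.3 to 55.4), against 47.7% of all protein-coding genes. AtPIF4 events were present at 7, or 17.5% (8.75 to 31.9), against 23.1% of all protein-coding genes. Intervals here cover counting over genes only, not the error between libraries, and each contains the share of all genes. Genes of the same classes of length and of summed gap to their neighbours had shares of 45.7% for AtHY5 and 22.2% for AtPIF4. The AtHY5 share of bZIP genes exceeded the AtPIF4 share by 22.5 percentage points (Newcombe interval 2.62 to 40.2), and among all genes the gap between the proteins was 24.5 points. That interval treats the shares as independent, although they come from the same genes. With the AtHY5 list limited to its 6699 highest scores, as many as the AtPIF4 list holds, 9 bZIP genes had an AtHY5 event and 7 an AtPIF4 event. The background shares were then 23% for AtHY5 and 23.1% for AtPIF4, and 4 bZIP genes had both, against 10.8%. The gap between the proteins was then 5 points at bZIP genes and -0.16 points in all genes.

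**Figure D1:**
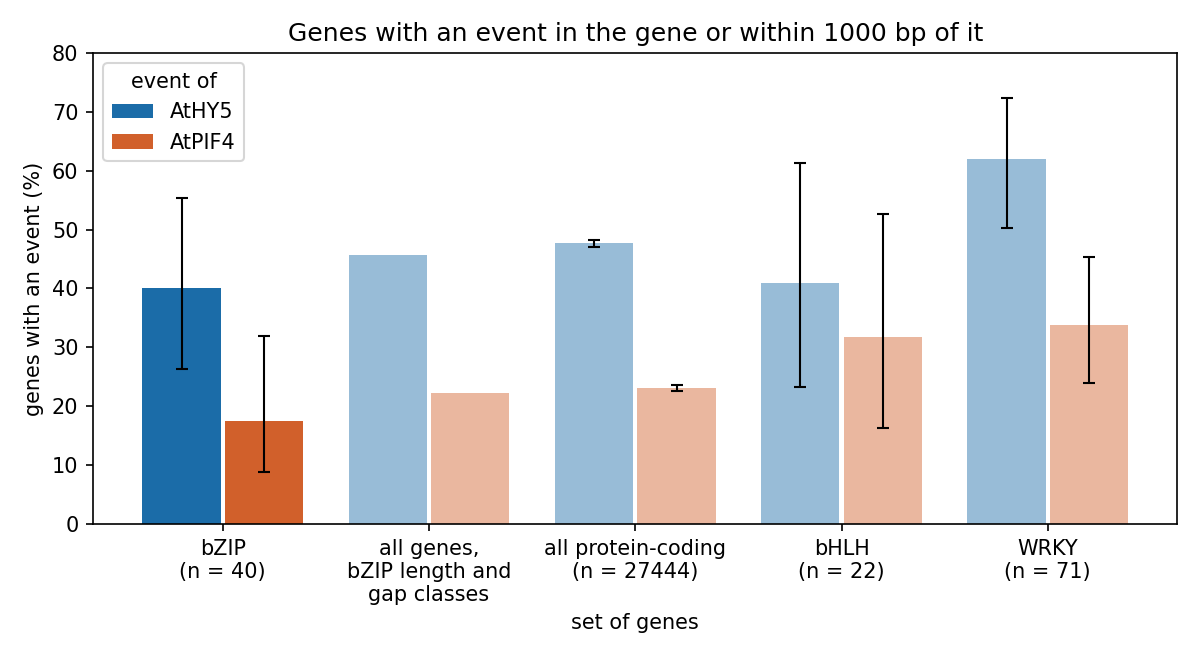
Bars give the percent of genes with an AtHY5 (blue) or AtPIF4 (orange) event inside the gene or within 1000 bp, for bZIP genes, for all genes weighted to the length and gap classes of the bZIP genes, for all protein-coding genes, and for numbered bHLH and WRKY genes. Error bars are 95% Wilson intervals over genes. The bZIP bars stand at 40% and 17.5%, and their intervals contain the shares of all genes.

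The other families gave a frame for these shares. Of 22 numbered bHLH genes, part of the family of PIF4, 9 had an AtHY5 event and 7 an AtPIF4 event, or 40.9% and 31.8%. Of 71 numbered WRKY genes, which mostly regulate defence and senescence, 44 had an AtHY5 event and 24 an AtPIF4 event, or 62.0% and 33.8%. Genes of the same length and gap classes had 47.6% and 23.2% for bHLH genes, and 49.1% and 24.1% for WRKY genes. The AtHY5 share of bZIP genes was thus near that of bHLH genes and under that of WRKY genes. The WRKY Wilson intervals, 50.3 to 72.4 for AtHY5 and 23.9 to 45.4 for AtPIF4, lay above the shares of all genes, 47.7% and 23.1%. Against genes of the WRKY length and gap classes, the AtHY5 interval lay above 49.1%, but the AtPIF4 interval contained 24.1%. The AtHY5 interval of WRKY genes overlapped that of bZIP genes, and the families were not tested against each other. The families differ in size and gene length, with medians of 1722 bp for bZIP, 1810 bp for bHLH and 2110 bp for WRKY genes.

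Events of AtPIF4 at bZIP genes all stood beside AtHY5 events in the same gene window. All 7 genes with an AtPIF4 event also had an AtHY5 event, while 9 had an AtHY5 event alone and 24 had neither. The 7 genes were all of the AtPIF4 set and 7 of the 16 in the AtHY5 set. Across all genes, 4665 had both, or 17%, which is 73.5% of the 6348 genes with an AtPIF4 event and 35.7% of the 13079 with an AtHY5 event. No source used here says whether both calls used the same input library.

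The bZIP genes drew 21 AtHY5 events and 8 AtPIF4 events in all. Per length of window this was 129 AtHY5 events and 49.1 AtPIF4 events per Mb, against 165 and 63.9 per Mb over the windows of all genes. Of the 40 bZIP genes, 0 had 3 or more events of either protein, against 5.24% of all genes for AtHY5 and 0.696% for AtPIF4. The median score of the AtHY5 events at bZIP genes was 115, against 118 for events in the windows of all genes. For AtPIF4 the medians were 143 and 147. Pooled over genes, the events at bZIP genes were therefore of ordinary rank, with 10 of 21 above the list median for AtHY5 and 4 of 8 for AtPIF4. By the highest score of each gene with an event, the AtHY5 medians were 157 for bZIP genes and 134 for all genes. For AtPIF4 these medians were 134 and 153. Events above the list median touched 10 bZIP genes for AtHY5, against 27.9% of all genes, and 3 for AtPIF4, against 12.6%. The 3 genes with such an AtPIF4 event also had such an AtHY5 event, and 7.64% of all genes had both.

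**Figure D2:**
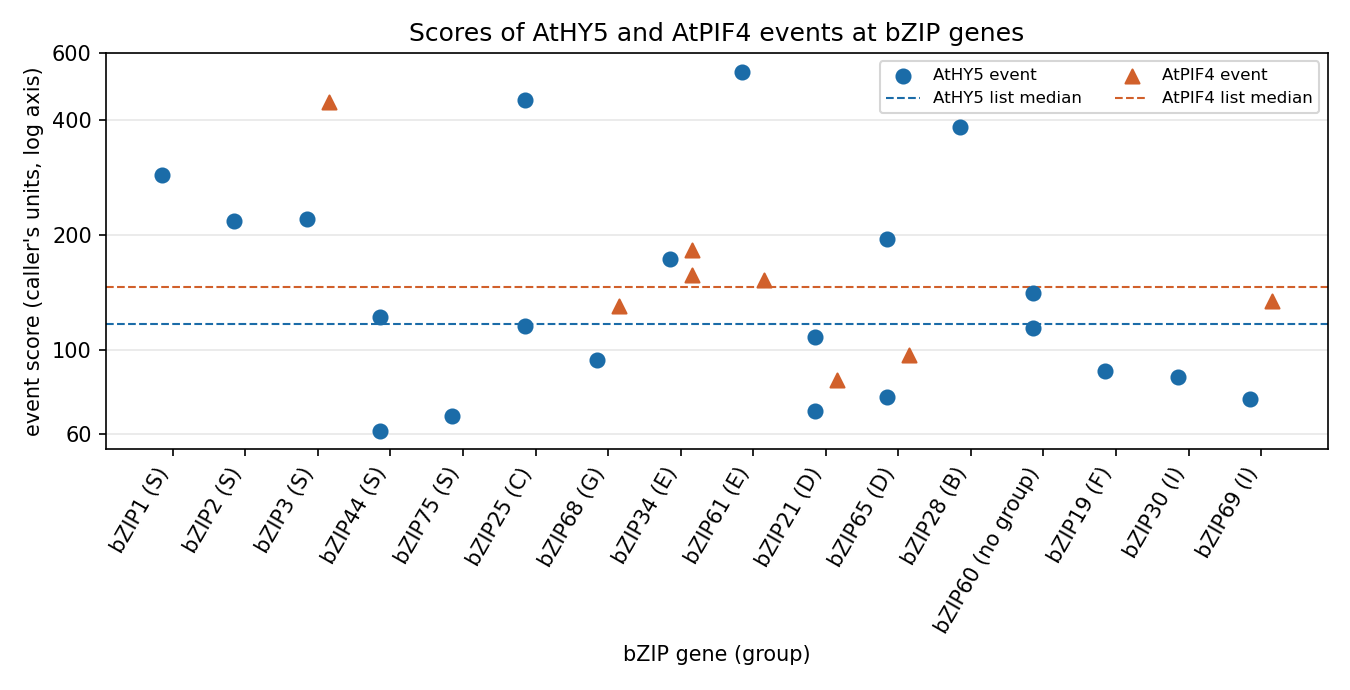
Each point is an event at a bZIP gene, AtHY5 as blue circles and AtPIF4 as orange triangles, with its score on a log axis and the group of the gene in parentheses. Dashed lines mark the median score of each whole list, 117 for AtHY5 and 146 for AtPIF4. The highest AtHY5 scores lie at bZIP61, bZIP25 and bZIP28, and the highest AtPIF4 score at bZIP3.

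Group E is the pair bZIP34, a pollen development gene, and bZIP61, its closest relative, and both had events of both proteins. Shares for all genes of their length and gap classes were 49.3% for AtHY5 and 25% for AtPIF4. bZIP61 (BZIP61, AT3G58120) held the highest AtHY5 score of the members, 535, above 95.3% of its list, at chr3:21522625-21522824 in the lists' build, TAIR10. The AtPIF4 event there had the same interval and a score of 152, above 53.5% of its list. Both centres lay 794 bp inside the gene from its nearest end. In bZIP34 (BZIP34, AT2G42380) the AtHY5 event of score 173 lay at chr2:17648293-17648492, 670 bp inside. Its AtPIF4 event of score 157 was centred 47 bp away, and another of score 183 lay 554 bp outside the gene. Each relative thus carried close AtHY5 and AtPIF4 events inside the gene, but their AtHY5 events differed in rank. Without strand, the distances may run from opposite gene ends, so positions were not matched between the genes. bZIP34 was the only bZIP gene with 2 AtPIF4 events.

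Group S encodes short bZIP proteins, and its S1 branch adjusts metabolism to low energy and is held back by sucrose through upstream reading frames. Of 16 members, 5 had an AtHY5 event and 1 an AtPIF4 event, where all genes of their length and gap classes had shares of 38.5% and 19.1%. Within S1, bZIP1 (AT5G49450), a regulator of sugar and nitrogen responses, had an AtHY5 event of score 288 at chr5:20052353-20052552, 283 bp inside the gene. bZIP2 (AT2G18160, also GBF5) had an event of score 218, 591 bp inside. bZIP44 (AT1G75390), known in seed germination, carried a pair of AtHY5 events, the inner one scoring 122 and the outer one, at 993 bp beyond an end, scoring 61. The score of 61 was above only 1.75% of the list. S1 members bZIP11 (listed as GBF6) and bZIP53 had no event of either protein, with the nearest AtHY5 events 3019 and 8014 bp away. No S1 gene had an AtPIF4 event in the window, and 3 of 5 had an AtHY5 event. For all genes of the S1 length and gap classes the shares were 44.3% for AtHY5 and 22% for AtPIF4.

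Outside S1, bZIP3 (AT5G15830) had the highest AtPIF4 score of the members. AtHY5 scored 220 there, above 79.7% of its list, at chr5:5167981-5168180 and 114 bp beyond a gene end. The AtPIF4 event, centred 2 bp away, scored 445, above 93.8% of its list. bZIP75 had an AtHY5 event of score 67, 166 bp inside, and is named although it fell outside the rule for named genes, after its value was seen. The other 9 S members outside S1, which are bZIP4, bZIP5, bZIP6, bZIP7, bZIP42, bZIP43, bZIP48, bZIP58 and bZIP70, had none.

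Group C proteins pair with S1 proteins in the energy and seed programmes. bZIP25 (BZIP25, AT3G54620), an activator of seed storage genes with bZIP53, had an AtHY5 event of score 452, above 93.6% of the list, at chr3:20217742-20217941. That event lay 13 bp beyond a gene end and also within 1000 bp of the neighbour HAG1, a histone acetyltransferase gene, so it can serve either. A lower-scoring AtHY5 event, at 115, lay 262 bp inside and also within 1000 bp of AT3G54630, so both AtHY5 events of this gene are shared with a neighbour. bZIP9, the other C member in the list, had no event, and its nearest AtHY5 event was 2169 bp away. Neither C gene had an AtPIF4 event. All genes of their length and gap classes had shares of 50.4% for AtHY5 and 23.4% for AtPIF4.

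Membrane-anchored bZIP factors released by stress in the endoplasmic reticulum form group B, and bZIP60 acts beside them after its messenger is spliced by IRE1. bZIP28 (BZIP28, AT3G10800) had an AtHY5 event of score 383, above 91.6% of the list, at chr3:3379114-3379313. It lay 45 bp inside an end and also within 1000 bp of AT3G10790. bZIP60 (BZIP60, AT1G42990) had AtHY5 events of score 141 at 275 bp outside and of score 114 at 672 bp inside. bZIP17, a salt stress factor, and bZIP49 had no event of either protein in the window. For bZIP17 the nearest AtHY5 event was 7436 bp away and the nearest AtPIF4 event 1825 bp away. Of the 3 group B genes, 1 had an AtHY5 event and 0 an AtPIF4 event. All genes of their length and gap classes had shares of 50.8% and 23.4%. bZIP60 had no AtPIF4 event in the window either.

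Among the TGA genes of group D, TGA9 (bZIP21, AT1G08320) and TGA10 (bZIP65, AT5G06839), which act together in anther development, had events of both proteins. They are also the longest members, at 6735 and 5986 bp. TGA10 had AtHY5 events of score 195 and 75 and an AtPIF4 event of score 97, all inside the gene, with 638 bp between the closest centres. TGA9 had AtHY5 events of score 108 inside and 69 outside the gene, the outer one also within 1000 bp of AT1G08310 and AT1G08315, and an AtPIF4 event of score 83, which was above only 2.07% of the AtPIF4 list. Its closest centres were 932 bp apart. TGA6 (bZIP45), a salicylic acid defence factor, had none, and its nearest AtHY5 event was 10238 bp away. All genes of the length and gap classes of these 3 genes had shares of 53.9% for AtHY5 and 28.1% for AtPIF4. The events of the anther pair were thus low or middling in rank apart from the TGA10 event of score 195, above 75.8% of the list.

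Group G holds the G-box binding factors, of which bZIP16 and bZIP68, light and redox regulators, are in the list. bZIP68 (AT1G32150) had an AtHY5 event of score 94, 346 bp inside and also within 1000 bp of AT1G32160, and an AtPIF4 event of score 130, 1216 bp inside, with 1589 bp between centres. bZIP16, its close relative, had none, with the nearest AtHY5 event 5168 bp away and the nearest AtPIF4 event 4919 bp away. In group F, bZIP19 and bZIP23 activate zinc uptake genes under deficiency, and bZIP24 acts in salt responses. bZIP19 (AT4G35040) had an AtHY5 event of score 88, 65 bp inside and within 1000 bp of MSI3, whereas bZIP23 and bZIP24 had no event of either protein. Among the listed members, each of these groups thus had events at 1 gene and none at the others. GBF2, a G-box binding factor outside the list, had an AtHY5 event. All genes of the length and gap classes of group G had shares of 51.5% for AtHY5 and 26.5% for AtPIF4. For group F these shares were 50.5% and 23.4%.

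Group I had 7 members, of which 2 had an AtHY5 event and 1 an AtPIF4 event, where all genes of their length and gap classes had shares of 49.7% and 23.3%. bZIP69 (AT1G06070) carried AtHY5 at score 74, 76 bp beyond a gene end, and AtPIF4 at score 134, with centres 1 bp apart. The AtHY5 interval was chr1:1837735-1837934. bZIP30 (AT2G21230), which acts in meristem and reproductive development, had an AtHY5 event of score 85, 291 bp outside, and is likewise named after its value was seen. bZIP18, bZIP29, bZIP31, bZIP33 and bZIP52 had none. bZIP27, the FD paralogue in flowering and the sole group A gene in the list, had none, with the nearest AtHY5 event 3217 bp away.

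Coincident events of both proteins, with centres within 100 bp, occurred at 4 of the 7 genes with both. The distances were 0 bp at bZIP61, 1 bp at bZIP69, 2 bp at bZIP3 and 47 bp at bZIP34, and 4 genes were counted at limits of 50 and 200 bp as well. In all protein-coding genes, 11.9% had a coincident pair within 100 bp, 9.79% within 50 bp and 13% within 200 bp, and among those with both proteins the share was 70.1%. The other members with both, TGA9, TGA10 and bZIP68, had centres 638 to 1589 bp apart.

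**Figure D3:**
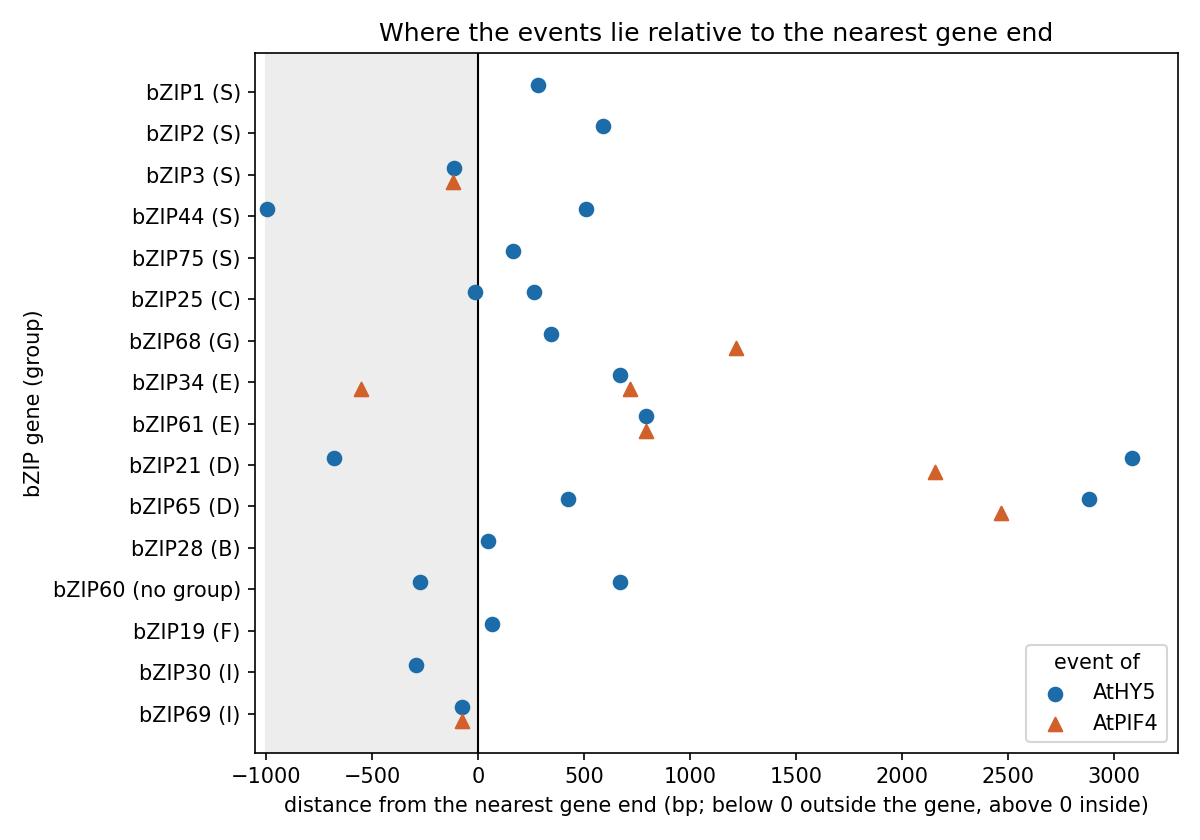
Each point is an event centre by its distance in bp from the nearest gene end, negative in the grey flank outside the gene and positive inside it, AtHY5 as blue circles and AtPIF4 as orange triangles. Symbols of both proteins stand almost on top of each other at bZIP3, bZIP34, bZIP61 and bZIP69, while TGA9 (bZIP21) and TGA10 (bZIP65) hold the deepest events, up to 3086 bp inside.

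Most events at bZIP genes lay inside the gene. This held for 14 of 21 AtHY5 events, or 66.7%, and for 5 of 8 AtPIF4 events, or 62.5%, against 56.5% and 55.9% in the windows of all genes. The 14 AtHY5 events inside had a median distance of 468 bp from an end, and 12 of them were within 1000 bp. The 5 AtPIF4 events inside lay 717 to 2466 bp from an end. Counting the gene body alone, 13 bZIP genes had an AtHY5 event and 5 an AtPIF4 event, against backgrounds of 30.3% and 13.7%. Counting the flanks alone, 7 and 3 had one, against 25.9% and 11.4%, and bZIP3 and bZIP69 had both, against 7.05% of all genes. The bZIP share for AtHY5 was 32.5% in gene bodies and 17.5% in flanks. A total of 6 AtHY5 events and 0 AtPIF4 events also lay within 1000 bp of another protein-coding gene. With such events left out, 12 bZIP genes had an AtHY5 event and 7 an AtPIF4 event, against 24.2% and 11.4% of all genes, and 6 had both, against 7.71%. The bZIP shares then stood above those of all genes. The summed gap to both neighbours had a median of 3331 bp for bZIP genes and 1855 bp for all genes, and genes of the same length and gap classes had shares of 28.8% for AtHY5 and 13.8% for AtPIF4.

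bZIP genes with events had larger median lengths than those without, a difference that was not tested. The median was 2500 bp for the 16 genes with AtHY5, 2930 bp for the 7 with AtPIF4 and 1484 bp for the 24 with neither. Of the 18 members longer than the median protein-coding gene, 2078 bp, 10 had an AtHY5 event and 6 an AtPIF4 event, or 55.6% and 33.3%. Among all genes of that length the shares were 51.7% and 25.5%. Of the 22 members at or under it, 6 had an AtHY5 event and 1 an AtPIF4 event, or 27.3% and 4.55%, against 43.6% and 20.8% of all such genes. The shares of long bZIP genes were thus near or above those of genes of their length, and those of short ones below. These differences rest on few genes and were not tested. Length moves with group here, since 1 of the 16 members of group S is longer than that median. Outside group S, 11 of 24 members had an AtHY5 event and 6 an AtPIF4 event, or 45.8% and 25%, where all genes of their length and gap classes had shares of 50.4% and 24.3%. The part of group and of length in these counts was not tested.

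**Figure D4:**
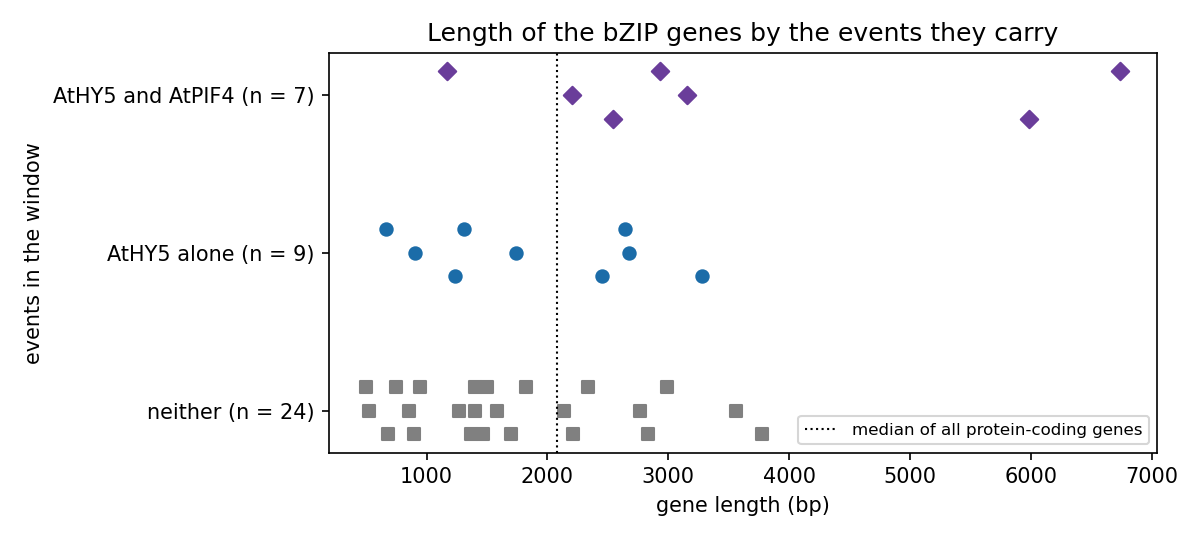
Each symbol is a bZIP gene by its length in bp, in rows for genes with events of both proteins (purple, n = 7), of AtHY5 alone (blue, n = 9) and of neither (grey, n = 24), with the vertical spread within a row only separating points. The dotted line is the median protein-coding gene, 2078 bp, and 6 of the 7 genes with both lie to its right.

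The 24 members without an AtHY5 event had their nearest one 1259 to 19681 bp away, with a median of 4126 bp, against a median of 3724 bp for all genes without one. Within 2000 bp, bZIP52, bZIP43 and bZIP70 gained an AtHY5 event. The same window added an AtPIF4 event for bZIP75, bZIP29, bZIP44 and bZIP17, at 1120 to 1825 bp. The count for AtHY5 was thus 19 at 2000 bp against a background of 59.9%, and 11 for AtPIF4 against 31.5%. At 500 bp the counts were the same as at 1000 bp, 16 and 7, against backgrounds of 39.8% and 18.7%. The AtHY5 share of bZIP genes therefore lay beside the background at 500 bp and under it at 2000 bp, where it was 47.5%. Both proteins together were present at 9 bZIP genes at 2000 bp, against 25.2% of all genes.

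**Figure D5:**
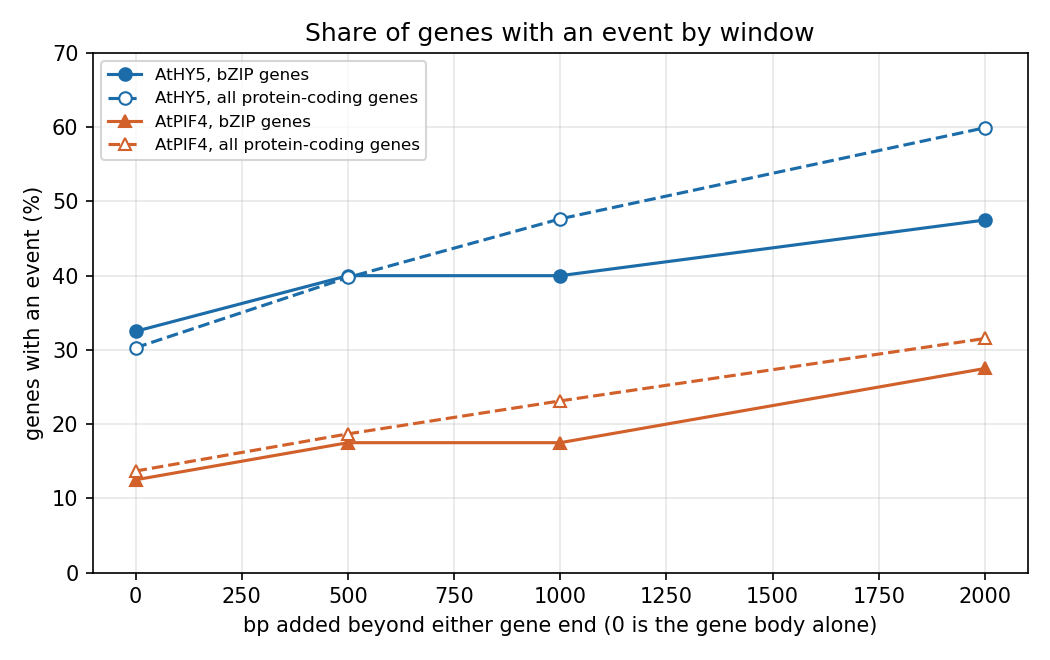
Lines give the percent of genes with an event when 0, 500, 1000 or 2000 bp are added beyond either gene end, for bZIP genes (solid) and all protein-coding genes (dashed), AtHY5 in blue and AtPIF4 in orange. The bZIP lines are flat between 500 and 1000 bp, at 40% and 17.5%, while the lines of all genes climb.

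By chromosome, AtHY5 events were present at 5 of 8 bZIP genes on chromosome 1, 3 of 12 on chromosome 2, 3 of 9 on chromosome 3, 1 of 4 on chromosome 4 and 4 of 7 on chromosome 5. Across all genes the AtHY5 shares of these chromosomes were 52.7%, 43.8%, 36.1%, 52.2% and 51.6%. Chromosomes 2 and 3, which hold 12 and 9 members, had the lowest shares in all genes.

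HY5, its homologue HYH and the abscisic acid factor ABI5 were set aside by the rule. HY5 and HYH had no event of either protein in this window. For HY5 the nearest AtHY5 event lay 1362 bp away and the nearest AtPIF4 event 1340 bp away. For HYH these distances were 1177 bp and 8904 bp. ABI5 carried AtHY5 at score 181 and AtPIF4 at score 654, above 97.0% of its list, with centres 2 bp apart just beyond a gene end. A further AtHY5 event, at 96.8, lay in the gene body.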

How the data were processed

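The authors' deposited event lists for AtHY5 and AtPIF4 were used. Reads were trimmed with Trim Galore, aligned with Bowtie2 and placed on TAIR10, per the submitters' processing notes, and the file headers name GEM as the event caller. Versions and the use of the input are not given in the sources used here. The score deposited by the authors was used as given, for ranks within a list.

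Genes and symbols came from a RefSeq table of TAIR10.1, whose coordinates are not printed because the build name differs. To check the match, events were moved by 1000 or 2000 bp either way: 65.3% of AtHY5 and 63.1% of AtPIF4 centres fell in genes as given, and 55.3% to 57.9% once moved. Same-class shares weight all genes as the members fall into 5 classes of length by 5 of gap. Groups follow the published bZIP classification. Positions are 1-based. An event in the windows of several genes counts at each.

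The rule for named genes took the 10 with the highest score for each protein, those with coincident events, and members of groups B, C, F, G and S1. Only 7 members had an AtPIF4 event, so all 7 were named. Also named, outside this rule, were bZIP75, bZIP30 and members of groups A, D, I and S without an event. Members, lists and rules were chosen with earlier results of these data known. No sequence was printed, since none was used here. The window count was tested on simulated events. Python 3.11.15, pandas 2.3.3, NumPy 2.4.6, SciPy 1.17.1 and matplotlib 3.10.9 were used.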

Additional observations from a re-analysis of the deposited data

How the results depend on the processing

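Each value rests on 1 library per protein of unknown depth, and a longer list can come from deeper sequencing. The AtHY5 count of 16 genes became 7 with flanks only, 10 for events above the list median and 9 for lists of equal length. The AtPIF4 count of 7 became 11 at 2000 bp, 3 with flanks only, 3 above the median score and 4 with members named by their symbol itself. Only 30 members are named that way, so 4 was 13.3% of them, against 23.1% of all genes. The count with both, also 7, became 2 with flanks only, 3 above the median score, 4 with equal numbers of events and 4 with members named by symbol. The other planned settings moved these counts by less, as did adding the 6 genes with an AtbZIP synonym, chosen after seeing the data, of which DPBF2 and GBF2 had an AtHY5 event.

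The AtHY5 share of bZIP genes differed from that of all genes by -7.66 points. It stood above it by 0.239 points at 500 bp, 2.21 with the gene body only and 5.84 when events within 1000 bp of another gene were left out. The AtPIF4 share differed from that of all genes by -5.63 points, and stood 6.15 above with such shared events left out. In that setting all genes of the same length and gap classes had 28.8% and 13.8%, close to 30% for AtHY5 and 17.5% for AtPIF4 in bZIP genes. The share with both was 0.502 points above all genes. It stood above by 4.32 points at 500 bp, 3.5 with the gene body only and 7.29 with shared events left out. With HY5, HYH and ABI5 added it stood 1.61 points above. Its difference was -2.68 at 2000 bp, -2.05 with flanks only, -0.145 for events above the list median and -0.76 for lists of equal length. It was -3.66 with members named by symbol and -1.78 with AtbZIP synonyms added. The cause was not tested. The AtHY5 share exceeded the AtPIF4 share in every setting run, but the AtHY5 list was longer in all except that of equal numbers. In the main setting the gap was 22.5 points at bZIP genes and 24.5 in all genes. With lists of equal length it was 5 points and -0.16 points. Libraries could not be paired because each protein has 1 library and no replicate. The shares come from the same genes, and no test paired by gene was run.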
